A study of Mus musculus with 6 samples.

Results

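The 10 genes described here encode transcription factors of lymphoid fate: Ikzf1, Ikzf2 and Ikzf3 of the Ikaros family, Satb1, Bcl11a, Tcf7, Lef1, Mef2c, Tcf4 and Foxp1. They were chosen by gene symbol, and all 10 were found among the 23337 genes of the count table. RNA came from sorted mouse leukaemia initiating cells (LICs), a leukaemia's fraction that can seed it again, labelled adult or neonatal and given as haematopoietic stem and progenitor cells by source. Adult LICs had 3 libraries, replicates 1, 2 and 4, written A1, A2 and A4 here. Neonatal LICs had 3 as well, replicates 4, 7 and 8, written N4, N7 and N8. The labels give no genotype, strain, oncogene, treatment, sort gate or exact age for either group, and they do not say whether replicates were separate animals, and the p-values therefore cover the spread between these libraries alone, which may be technical.

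Blood progenitors take a lymphoid path through layers of DNA-binding proteins. Ikaros family proteins are zinc finger factors that recruit chromatin complexes and act from multipotent progenitors onward, and Satb1 folds chromatin and favours lymphoid output of stem cells. Bcl11a is needed for early lymphoid progenitors and silences fetal globin genes, Tcf7 (TCF1) and Lef1 carry WNT signals to DNA and act in early T cell development, Mef2c favours lymphoid over myeloid choice, Tcf4 (E2-2) is the E protein of plasmacytoid dendritic cells, and Foxp1 is a forkhead factor of early B cell development. Several are also expressed in myeloid leukaemias.

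The upstream windows of Satb1 and Lef1 are shown because Satb1 had the largest positive fold change of the 10 factors and Lef1 had no count in any library. Both are the 250 bases before the first RefSeq start site listed for the gene (build GRCm38.p6, the assembly of mm10) and lie outside the RefSeq gene. All 250 bases of each are covered by GENCODE exons, counted over any gene on either strand, the gene itself included. They are written 5′ to 3′ in the direction of the gene, Satb1 from chr17:51833291-51833540 on the minus strand and Lef1 from chr3:131110047-131110296 on the plus strand. Capitals mark the match to a searched motif.
Satb1: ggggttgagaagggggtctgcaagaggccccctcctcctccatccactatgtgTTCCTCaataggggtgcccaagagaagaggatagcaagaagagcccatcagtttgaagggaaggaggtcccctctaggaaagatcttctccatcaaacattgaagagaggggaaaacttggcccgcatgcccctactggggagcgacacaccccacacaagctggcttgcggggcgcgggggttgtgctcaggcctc
Lef1: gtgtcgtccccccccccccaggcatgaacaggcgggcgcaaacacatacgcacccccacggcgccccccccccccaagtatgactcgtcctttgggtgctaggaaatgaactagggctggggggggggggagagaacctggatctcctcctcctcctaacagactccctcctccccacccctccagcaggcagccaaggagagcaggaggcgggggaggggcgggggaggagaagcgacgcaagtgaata
Of 6 motifs searched on both strands, the ETS core of PU.1 (GAGGAA) had 1 match in the Satb1 window and is found in 23.3% of 32841 such windows. The TCF/LEF core (CTTTGA, 13.8% of windows), the Ikaros core (TGGGAA, 21.6%), the E-box CAGGTG (17.2%), the forkhead core (TGTTTA, 12.03%) and the MEF2 element (3.20%) had no match in the Satb1 window, and none of the 6 had one in the Lef1 window. These are letters in a window, and no binding was measured.

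The adult libraries held 60113466 to 65183188 counts and N7 and N8 held 64712241 and 66132051, but N4 held 3932833, so the other 5 were 16.2 times as deep on average. Levels are given as CPM, counts scaled to library size with TMM factors. A gene without a count was given a floor of 3 counts (95% confidence, counting error only), which on library totals is 0.763 CPM in N4 and at most 0.0499 CPM in the others. Xist ranged from 0.610 to 0.919 CPM in adult libraries and from 51.7 to 185.9 CPM in neonatal ones, while the Y-linked Ddx3y ranged from 98.8 to 154 CPM in adult libraries and had 1 count in the neonatal libraries together, so sex and age group cannot be told apart. Every library had counts of Ptprc, Kit and Cd34, markers of blood cells and progenitors, while Mecom was at 0 in every library and Procr at most at 0.142 CPM.

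Between adult and neonatal LICs the lymphoid-fate factors did not move as 1 block. Satb1 was 20.2 times higher in the lowest neonatal library than in the highest adult library, and Tcf4 also stood higher in each neonatal than in each adult library. Bcl11a and Tcf7 had low levels in every adult library and no count in any neonatal library. Ikzf1, Ikzf2, Mef2c and Foxp1 were abundant in both groups with overlapping values, Ikzf3 had most of its counts in A2, and Lef1 was at 0 throughout. The plot of levels by library shows these patterns.

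**Figure D1:**
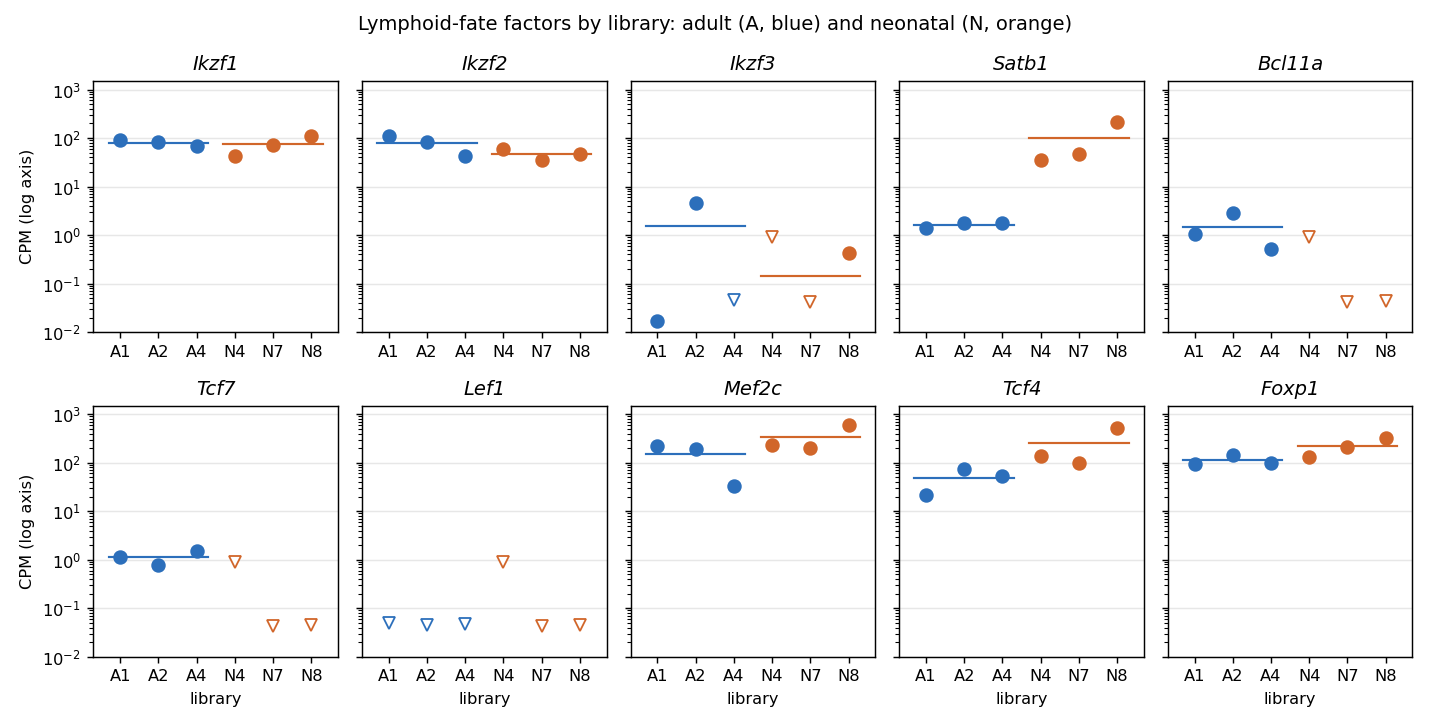
Level of each factor in each library (CPM, log axis), with adult libraries in blue, neonatal libraries in orange and group means as lines; open triangles mark the floor of 3 counts where a library had none. Satb1 runs from 1.41 to 1.76 CPM in adult and from 35.6 to 213 CPM in neonatal libraries, while Bcl11a and Tcf7 have no neonatal count and Lef1 none at all.

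Of the 10 factors, 8 passed the filter on low counts, and 0 of these passed edgeR's quasi-likelihood test adjusted over 13272 genes, of which 0.0527% passed. By unadjusted edgeR p under 0.05 there were 5, Satb1, Tcf4 and Foxp1 higher and Bcl11a and Tcf7 lower in neonatal LICs, against 11.9% of all genes tested (4.93% higher and 7.01% lower). DESeq2 called 4 (Satb1, Tcf4, Bcl11a and Tcf7; 5.75% of genes), limma voom called 0 (0.0527% of genes), and limma voom with library quality weights called 3 (7.96% of genes). Without the shallow N4, edgeR called 3 of 9 tested factors, Satb1 higher (3.72% of 13856 genes were called higher) and Bcl11a and Tcf7 lower (2.25% called lower). The 2 groups did not overlap for 4 of the 8 tested factors, as for 19.6% of all genes tested (7.67% with neonatal LICs above), but Bcl11a and Tcf7 had passed the filter through the adult libraries alone and so had to differ. In bulk RNA, fewer cells that express a factor and less RNA per cell cannot be told apart.

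Satb1 (chromosome 17, 51736187 to 51833290, mm10), the chromatin organiser, read 1.41 CPM in A1, 1.74 in A2 and 1.76 in A4, against 35.6 CPM in N4, 46.2 in N7 and 213 in N8. The adult libraries were close together, with the highest 1.25 times the lowest, and each neonatal library lay above them. Among neonatal libraries N8 stood apart, 4.60 times as high as N7. The log2 fold change, neonatal minus adult, was 5.91 ± 0.81 (SE, edgeR adjusted p = 0.119), and the value without N4 was 6.32 ± 0.67 (SE, edgeR adjusted p = 0.0320). Without N8 it was 4.64, again past the threshold (edgeR adjusted p = 0.0264), where 0.0146% of genes were called higher. Exons of Gm6934 on the opposite strand cover 1.89% of Satb1's exon length (128 bases) and exons of Gm36931 on the same strand 156 bases, and reads were counted without regard to strand. In rank, Satb1 moved from the middle of the transcriptome, above 47.3 to 49.1% of genes by length-scaled level in adult libraries, to above 69.5 to 86.2% of genes in neonatal libraries.

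Bcl11a (chromosome 11, 24078056 to 24173558) and Tcf7 (chromosome 11, 52252604 to 52282571) were adult-only at these depths. Bcl11a, the zinc finger factor, had 62, 194 and 34 counts in A1, A2 and A4 (1.04, 2.89 and 0.530 CPM) and 0 in each neonatal library. Exons of 4930538E20Rik on the opposite strand cover 4.5% of Bcl11a's exon length (316 bases), and reads were counted without regard to strand. Tcf7, the WNT-responsive factor of early T cells, had 69, 52 and 97 counts in A1, A2 and A4 (1.16, 0.774 and 1.51 CPM) and likewise 0 in each neonatal library. A2 was thus the highest for Bcl11a and the lowest for Tcf7. Against a floor of 3 counts over the neonatal group, Bcl11a was at least 70.0-fold and Tcf7 at least 54.1-fold lower in neonatal LICs. The Bcl11a bound was 37.0-fold without A2, its highest library. Both genes passed the count filter through the adult libraries alone and so had to differ, and their edgeR adjusted p-values (0.143 and 0.140, or 0.0478 and 0.0420 without N4) are given as a description. In N7 and N8 the floors of 0.0464 and 0.0454 CPM lie below every adult value. On library totals the floor of 0.763 CPM in N4 lies above the lowest adult value of Bcl11a and near that of Tcf7. Scaled by the TMM factor of N4 (0.851), as the adult values are by theirs, the floor lies above both. At this depth N4 thus cannot be told apart from the lowest adult library of either gene, while the other adult values lie above the floor.

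Lef1 (chromosome 3, 131110471 to 131223331), the partner of Tcf7 in T cell development, had 0 counts in each library, among 322382172 counts in all. The other TCF/LEF genes, Tcf7l1 and Tcf7l2, which also bind beta-catenin, were detected in every library. Tcf7l2 read 5.19 CPM in A1, 3.74 in A2 and 0.281 in A4, against 1.79 CPM in N4, 6.94 in N7 and 23.01 in N8, with overlap (edgeR adjusted p = 0.596). A4 was low for it and N8 high. Bcl11b, the T lineage paralog of Bcl11a, overlapped as well, at 2.63, 9.59 and 0.0468 CPM in A1, A2 and A4 and at 1.196, 2.42 and 4.77 CPM in N4, N7 and N8.

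Ikzf1 and Ikzf2 were abundant members of the Ikaros family in both groups. Ikzf1 (Ikaros, chromosome 11, 11686213 to 11772926) read 90.4 CPM in A1, 81.2 in A2 and 69.4 in A4, against 43.6 CPM in N4, 70.7 in N7 and 108.9 in N8. Its neonatal values spanned the adult ones on both sides, and its log2 fold change was -0.11 ± 0.38 (SE, adjusted p = 0.95 by edgeR) and turned to 0.17 ± 0.24 without N4. Ikzf2 (Helios, chromosome 1, 69531210 to 69685960), known from regulatory T cells and stem cells, read 110.3 CPM in A1, 82.7 in A2 and 41.8 in A4, against 58.6 CPM in N4, 36.0 in N7 and 46.6 in N8 (log2 fold change -0.74 ± 0.41, SE, adjusted p = 0.545 by edgeR). A4 lay among the neonatal libraries. The log2 fold change was -0.11 with offsets for exon length and GC content.

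Ikzf3 (Aiolos, chromosome 11, 98464693 to 98546031), the member of committed lymphocytes, had 1, 310 and 0 counts in A1, A2 and A4 and 0, 0 and 29 in N4, N7 and N8, too few for the test on 6 libraries. A2 alone reached 4.61 CPM. The same library had the highest adult Bcl11b and, at 4.05 CPM against 0.101 and 0.171 CPM in A1 and A4, the highest adult Cd28, a T cell costimulator. The summed T cell markers stood at 8.04 CPM there and at 3.10 to 9.62 CPM over all libraries, and Cd3e, Cd3g and Cd4 had no count in any. Cd28 alone was 4.05 of the 8.04 CPM. A2 was also the highest adult library for Cd3d (0.342 CPM), Cd5 (0.774 CPM), Cd8a (0.313 CPM) and Cd8b1 (0.402 CPM). By contrast, in A2 Lck (0.387 CPM) was the lowest of the adult libraries, Lat (1.77 CPM) lay below A1 and Cd2 and Thy1 were at 0. The part of these T cell markers in the Ikzf3 value was not tested. Ikzf4 (Eos) had 1 count in all, whereas Ikzf5 (Pegasus), a member expressed in many tissues, stood at 39.4 to 44.7 CPM in adult and 16.0 to 33.2 CPM in neonatal libraries without overlap (log2 fold change -0.90 ± 0.36, SE, adjusted p = 0.385 by edgeR). Without N4, Ikzf5 fell in neonatal LICs (log2 change -1.23 ± 0.23, SE, edgeR adjusted p = 0.0415).

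Mef2c (chromosome 13, 83504034 to 83667079), the MADS-box factor, read 225.9 CPM in A1, 192.7 in A2 and 33.6 in A4, against 232.2 CPM in N4, 196.9 in N7 and 585.9 in N8. A1 and A2 lay within the neonatal range or just below it, while A4 was the lowest and N8 the highest library. Its log2 fold change was 1.17 ± 0.72 (SE, edgeR adjusted p = 0.590), 0.70 without A4 and 0.51 without N8. Its paralog Mef2d stood at 26.1 to 31.9 CPM in adult libraries, at 65.2 and 94.0 CPM in N7 and N8, and at 21.2 CPM in N4. Without that replicate Mef2d rose in neonatal LICs (by 1.49 ± 0.23, SE, on the log2 scale, edgeR adjusted p = 0.0360).

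Tcf4, the E protein gene on chromosome 18, read 21.4 CPM in A1, 72.7 in A2 and 52.9 in A4, against 136.6 CPM in N4, 98.6 in N7 and 521.3 in N8. The groups did not overlap, but the lowest neonatal value was only 1.36 times the highest adult value, and N8 was 5.29 times N7. The log2 fold change was 2.36 ± 0.73 (SE, edgeR adjusted p = 0.257), 1.26 without N8, and 2.67 ± 0.77 without N4 (edgeR adjusted p = 0.0869). Plasmacytoid dendritic cells, which depend on Tcf4, were looked for through 5 markers. Their summed level was 0.149 to 1.22 CPM in adult and 0.241 to 7.30 CPM in neonatal libraries, Siglech reached at most 0.0893 CPM and Cd209d was at 0. The top value, in N8, was nearly all Pacsin1 (459 counts there and 0 in the other libraries), and its part in the Tcf4 level was not tested.

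The E protein Tcf3 (E2A), which starts B cell development with Ebf1, stood at 91.0, 90.0 and 121.2 CPM in A1, A2 and A4, at 200.4 and 260.9 CPM in N7 and N8, and at 62.5 CPM in N4. Without that replicate Tcf3 rose in neonatal LICs (by 1.21 ± 0.22, SE, on the log2 scale, edgeR adjusted p = 0.0414). Of 4 Id genes, whose proteins block E proteins, Id1 and Id2 were tested and overlapped between the groups (edgeR adjusted p = 0.958 and 0.866; 0 of 2 at an unadjusted p under 0.05 and 0 by DESeq2). Id3 had 4 counts in all and Id4 none.

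Foxp1 (chromosome 6, 98925342 to 99435345), the forkhead factor, read 95.8 CPM in A1, 146.9 in A2 and 100.4 in A4, against 128.2 CPM in N4, 212.5 in N7 and 323.7 in N8. A2 overlapped N4, and the other neonatal libraries lay above the adult ones. The log2 fold change was 0.96 ± 0.40 (SE, adjusted p = 0.400 by edgeR) and 1.24 ± 0.28 without N4 (SE, edgeR adjusted p = 0.0511), just short of the threshold. Foxp2 and Foxp3 had at most 27 counts in a library. The plot of fold changes sets the factors beside their paralogs.

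**Figure D2:**
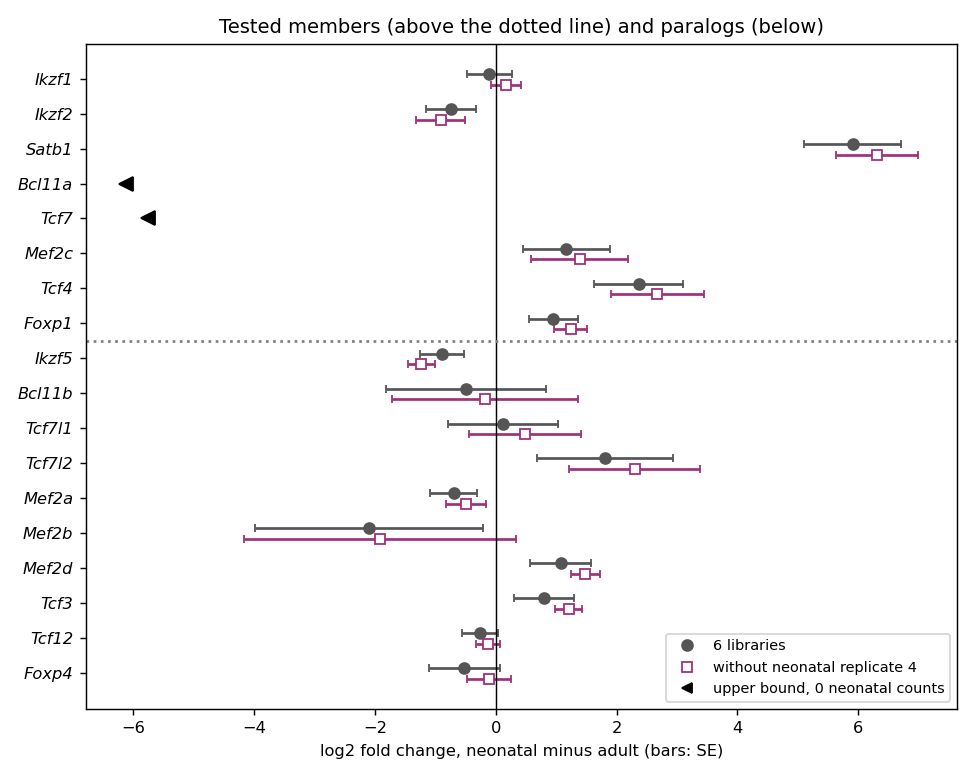
Log2 fold changes, neonatal minus adult, from edgeR with SE bars, for the 8 tested factors (above the dotted line) and 10 tested paralogs (below), with 6 libraries (circles) and without N4 (squares); triangles are the bounds for Bcl11a and Tcf7. Satb1 lies farthest to the right at 5.91 while Ikzf1 sits near 0.

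Among paralogs of the 10 factors, 11 of 14 were tested and 0 passed edgeR on 6 libraries. Of the paralogs 2, among them Ikzf5, had an unadjusted edgeR p under 0.05 (beside 11.9% of all genes), and DESeq2 called 1 (beside 5.75%). Their median log2 fold change was -0.50, beside 0.42 for the 8 tested factors (also with Bcl11a and Tcf7 at their bounds) and 0.05 over all genes. Without N4, Mef2d and Tcf3 were called higher and Ikzf5 lower, 3 of 12 tested, against 5.98% of genes called in either direction.

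Set against each other by length (CPM per kb of exon, RPKM), the factors changed order between the groups by their means. In adult libraries Mef2c averaged 22.96 ± 15.7, Ikzf1 15.6 ± 2.04, Foxp1 15.3 ± 3.78, Ikzf2 8.31 ± 3.66 and Tcf4 6.38 ± 3.37 RPKM (SD, n = 3 each), and Tcf7, Ikzf3, Satb1 and Bcl11a averaged 0.513, 0.377, 0.241 and 0.212 RPKM. In neonatal libraries Mef2c averaged 51.5 ± 32.8, Tcf4 32.8 ± 30.4, Foxp1 29.6 ± 13.1, Satb1 14.5 ± 14.6, Ikzf1 14.4 ± 6.35 and Ikzf2 4.99 ± 1.201 RPKM (SD, n = 3 each). In adult libraries the neighbours Ikzf1 and Foxp1, and Ikzf2 and Tcf4, differed by less than their SDs. So did Mef2c and Tcf4, Tcf4 and Foxp1, and Satb1 and Ikzf1 in neonatal libraries. In adult libraries Mef2c and Ikzf1 differed by less than the SD of Mef2c but by more than that of Ikzf1. The steps from Foxp1 to Ikzf2 in adult libraries and from Foxp1 to Satb1 and Ikzf1 to Ikzf2 in neonatal libraries exceeded the SDs of both genes. By library, Satb1 lay above Ikzf1 in N8 alone (31.3 against 21.1 RPKM). In N7 Tcf4 (12.8 RPKM) lay below Foxp1 (28.4 RPKM) and Ikzf1 (13.7 RPKM). Of 7 factors with a neonatal count, 6 were highest in N8, as were 34.1% of all tested genes with a neonatal count.

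The make-up of a family within a library does not depend on scaling between libraries, and 5 families were compared by the share of counts per kb held by 1 member. Foxp1 held 78.2 to 89.9% of the FOXP family in adult and 91.4 to 96.4% in neonatal libraries, a difference of 10.6 points (two-sided exact permutation p = 0.10, 0.25 adjusted over 5 families). Tcf7 held 17.9, 20.9 and 77.5% of the TCF/LEF family in A1, A2 and A4 and 0% in the neonatal libraries (two-sided exact permutation p = 0.10, 0.25 adjusted), where Tcf7l2 held 64.7 to 83.5%. As Tcf7 had no neonatal count, its share had to be 0 there, and this p is given as a description. With 3 libraries against 3 no smaller p than 0.10 is possible. In N4 the family had only 2 counts of Tcf7l1 and 6 of Tcf7l2. Without A4 the Tcf7 difference of -38.7 points became -19.4 points.

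For the other families the groups overlapped. Tcf4 held 14.3 ± 7.39% of the E proteins in adult and 34.9 ± 16.1% in neonatal libraries (SD, n = 3 each, two-sided exact permutation p = 0.20, 0.333 adjusted). Tcf4 was level with Tcf3 in N4 and N8, at 42.8 and 45.5%, but held 16.4% in N7. Ikzf1 held 44.5 to 47.9% of the Ikaros family in adult libraries and 38.0, 64.7 and 68.9% in N4, N7 and N8 (two-sided exact permutation p = 0.40, 0.40 adjusted). Mef2c held 56.5, 57.6 and 20.5% of the MEF2 family in A1, A2 and A4 and 72.8, 46.9 and 66.0% in N4, N7 and N8 (two-sided exact permutation p = 0.40, 0.40 adjusted). The plot of family make-up shows these shares.

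**Figure D3:**
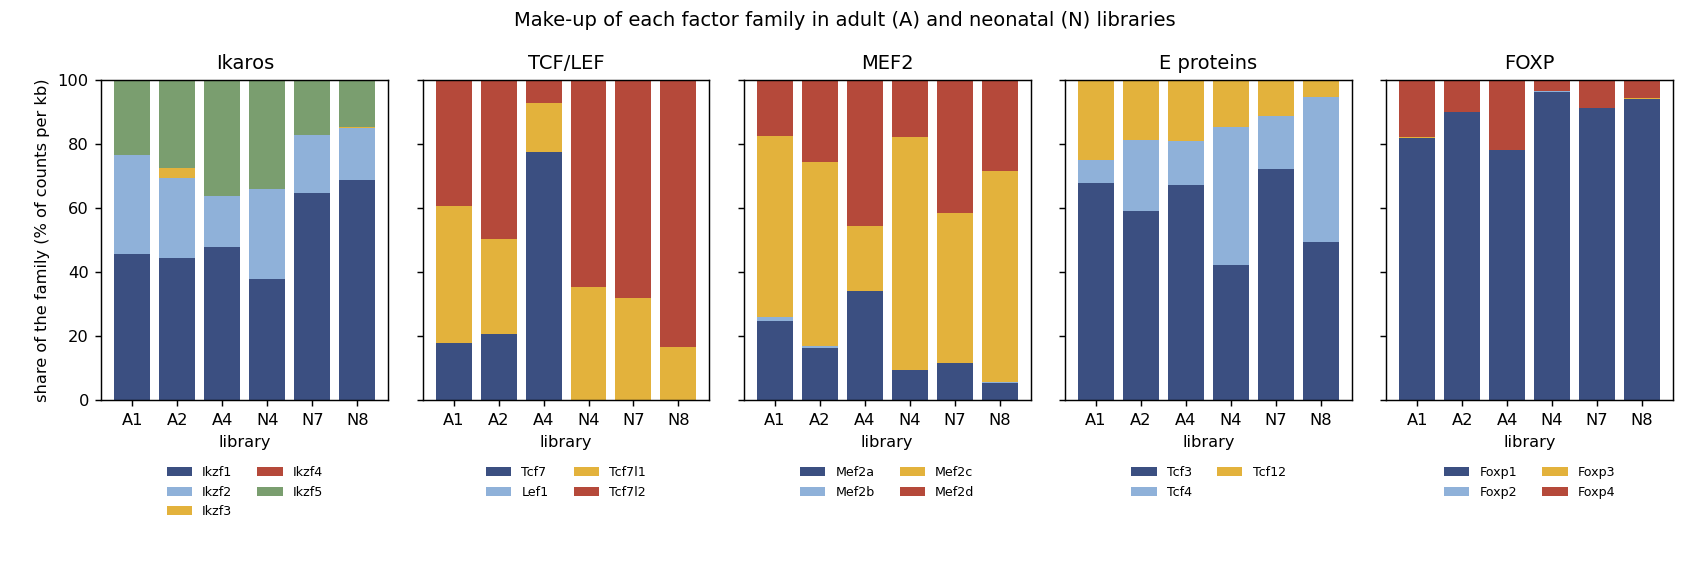
Share of each gene in its family's counts per kb of exon (%), stacked to 100% in each adult (A) and neonatal (N) library. Tcf7 is present in the adult bars alone, and Foxp1 takes 91.4 to 96.4% of the neonatal FOXP bars.

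RNA of genes that encode proteins through which these factors act was measured as well, on lists with no member of the 10. Of 13 genes of the NuRD complex, the chromatin remodeller recruited by Ikaros proteins, 0 passed edgeR. By unadjusted edgeR p under 0.05 there was 1 (beside 11.9% of all genes), and DESeq2 called 0 (beside 5.75%). Limma voom with library quality weights called 2, Chd3 and Mta1, beside 7.96% of all genes. The log2 fold change was positive for 12 of 13 (10 of 13 without N4), beside 7106 of all 13272 genes, with a median of 0.25. Mta1, a NuRD subunit, stood at 12.3 to 14.9 CPM in adult libraries and at 13.2, 32.3 and 39.5 CPM in N4, N7 and N8, and rose without N4 (log2 fold change 1.41, edgeR adjusted p = 0.0390). Of 11 tested TCF/LEF cofactors 0 passed edgeR (0 at an unadjusted p under 0.05, 0 by DESeq2, median 0.31). Limma voom with quality weights called 1, Tle2, beside 7.96% of all genes. Ctnnb1, which encodes beta-catenin, was at 160 to 362 CPM in adult and 103 to 213 CPM in neonatal libraries, and was named after its values were seen. Tle2, a Groucho corepressor gene, stood at 1.66 to 2.81 CPM in adult libraries and at 0.897, 8.02 and 8.53 CPM in N4, N7 and N8 (edgeR adjusted p = 0.499).

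Of 13 WNT target genes 7 were tested and 0 passed edgeR, with a median of 0.13. There was 1 at an unadjusted edgeR p under 0.05 (beside 11.9% of all genes) and 1 by DESeq2 (beside 5.75%). Axin2, the most used readout of WNT signalling, had at most 33 counts in a library (named after its values were seen). Znrf3, a ubiquitin ligase that removes WNT receptors, was the DESeq2 call, at 0.342 to 0.499 CPM in adult and 1.196, 4.69 and 1.84 CPM in N4, N7 and N8 (log2 fold change 2.65 ± 0.75, SE, adjusted p = 0.2145 by edgeR). Of 4 class IIa histone deacetylase genes, whose proteins bind MEF2 factors, 0 passed edgeR (0 at an unadjusted p under 0.05, 0 by DESeq2). Hdac5 stood at 33.7 to 51.5 CPM in adult libraries and at 12.3, 104.5 and 126.9 CPM in N4, N7 and N8, and rose without N4 (log2 fold change 1.41, edgeR adjusted p = 0.0379).

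Genes of the lymphoid path beside the 10 factors were uneven. Of 12 receptor and recombination genes 8 were tested and 0 passed edgeR (4 at an unadjusted p under 0.05, beside 11.9% of all genes; 1 by DESeq2, beside 5.75%; median 1.45). Flt3, the growth factor receptor of lymphoid-primed progenitors, was the DESeq2 call, and also the 1 gene of the list called by limma voom, where 0.0527% of all genes passed. It averaged 10.2 ± 8.01 CPM over adult against 685 ± 498 CPM over neonatal libraries (SD, n = 3 each), and rose without N4 (edgeR adjusted p = 0.0348). The recombinase gene Rag2 (named after its values were seen) read 0 CPM in A1, 1.74 in A2 and 0.717 in A4, against 6.28 CPM in N4, 8.34 in N7 and 8.53 in N8, while its partner Rag1 had no count in any library. Of 16 other lymphoid transcription factors 6 were tested and 0 passed edgeR (2 at an unadjusted p under 0.05, Irf8 and Sox4, and 1 by DESeq2, Irf8; median 1.18). Irf8, which directs B cell and dendritic cell fates, read 31.2 CPM in A1, 128.6 in A2 and 66.6 in A4, against 339 CPM in N4, 381 in N7 and 288 in N8. The B and T lineage determinants Pax5, Ebf1 and Gata3 had 0, 6 and 1 counts in all, beside the high Satb1 and Tcf4 of neonatal LICs.

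Markers of other cells moved with the groups in part. All 9 neutrophil markers in the file had a lower fitted value in neonatal LICs, with summed levels of 1757 to 14328 CPM in adult and 27.9 to 155 CPM in neonatal libraries, and the highest sum was in A2, where Bcl11a and Ikzf3 were highest. The adult sums were mostly Camp, Ngp, S100a8 and S100a9. Retnlg, Cxcr2, Mmp8 and Mmp9 overlapped between the groups, the last 3 with log2 fold changes of -0.09, -0.31 and -0.38. N4 was the highest library for Cxcr2 (42.4 CPM) and Mmp8 (20.6 CPM). Without N4, 8 of the 9 were lower and S100a8 alone was called (edgeR adjusted p = 0.0437), beside 5.98% of all genes. By DESeq2 on 6 libraries 5 of the markers were called, beside 5.75% of all genes. Their part in the adult-only RNA of Bcl11a and Tcf7 was not tested. Among the adult libraries Tcf7 was lowest in A2. Without N4 the monocyte receptor gene Fcgr1, with 58, 40 and 32 adult counts and no neonatal one, was called lower (edgeR adjusted p = 0.0498), but it too had passed the filter through the adult libraries alone. Of the 8 monocyte and macrophage markers 2 had a positive and 6 a negative log2 fold change. The 2 at an unadjusted edgeR p under 0.05, Fcgr1 and Vcan, were lower in neonatal LICs (beside 7.01% of all genes tested). Summed levels of the 8 overlapped, at 1492 to 2467 CPM in adult and 1138 to 4094 CPM in neonatal libraries, and were mostly Ly6c2.

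The summed level of stem and progenitor markers was higher in each neonatal than in each adult library, at 338 to 452 CPM in the adult and 575 to 1513 CPM in the neonatal ones. Of 5 tested, 3 had a positive log2 fold change and 0 passed edgeR. There were 3 at an unadjusted edgeR p under 0.05, 2 higher and 1 lower in neonatal LICs (beside 11.9% of all genes). DESeq2 called 1, Gata2 (beside 5.75%). Cd34, a surface marker of progenitors, read 8.16 CPM in A1, 105.4 in A2 and 12.6 in A4, against 396 CPM in N4, 643 in N7 and 662 in N8, without overlap. Gata2, a factor of stem cells, had a log2 fold change of 4.88 (adjusted p = 0.239 by edgeR), while Ptprc had -0.53. Without N4 the receptor gene Kit rose (edgeR adjusted p = 0.0361), though N4 had its lowest value, 23.6 CPM. The summed markers and Cd34 separated the groups as Satb1 and Tcf4 did, and their part in those levels was not tested.

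B cell markers summed to 40.0 to 70.8 CPM in adult and 74.4 to 152 CPM in neonatal libraries, mostly Cd79b, with Ms4a1 at 0 in each library. Of 7 tested, 0 had an unadjusted edgeR p under 0.05. The log2 fold change was positive for 5 and negative for 2, Igll1 (-3.05) and Cd22 (-1.15). NK cell markers summed to 1.16 to 3.01 CPM in adult and 0.563 to 20.6 CPM in neonatal libraries, with Ncr1, Gzma and Klre1 at 0. Megakaryocyte markers summed to 47.0 CPM in N8, the library with the highest Satb1, Mef2c, Tcf4 and Foxp1, and to 0.545 to 7.47 CPM elsewhere; this was nearly all Itga2b, and its part in those levels was not tested.

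Profiles over the 6 libraries were compared for Satb1 and Mef2c by the root mean square difference of log2(CPM + 0.5), each gene centred on its own mean, among 9841 genes of at least 2 CPM on average, with predicted and non-coding genes passed over. Nearest to Satb1 were Cxxc5 (0.74), Tex14 (0.77), Flt3 (0.81), Npy (0.95) and Gpr56 (0.99). Flt3 stood highest in N8 and above its adult values in each neonatal library, as Satb1 did. Nearest to Mef2c were Ccnd1, the cyclin D1 gene (0.20), Plekho1 (0.33), Dkkl1 (0.36), Krt18 (0.38) and Plp2 (0.39). Ccnd1 shared the low value in A4, at 1.67 CPM against 11.7 and 13.2 CPM in A1 and A2, and the high value in N8, at 42.4 CPM against 18.8 and 14.6 CPM in N4 and N7. Such likeness over 6 libraries is a description.

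**Figure D4:**
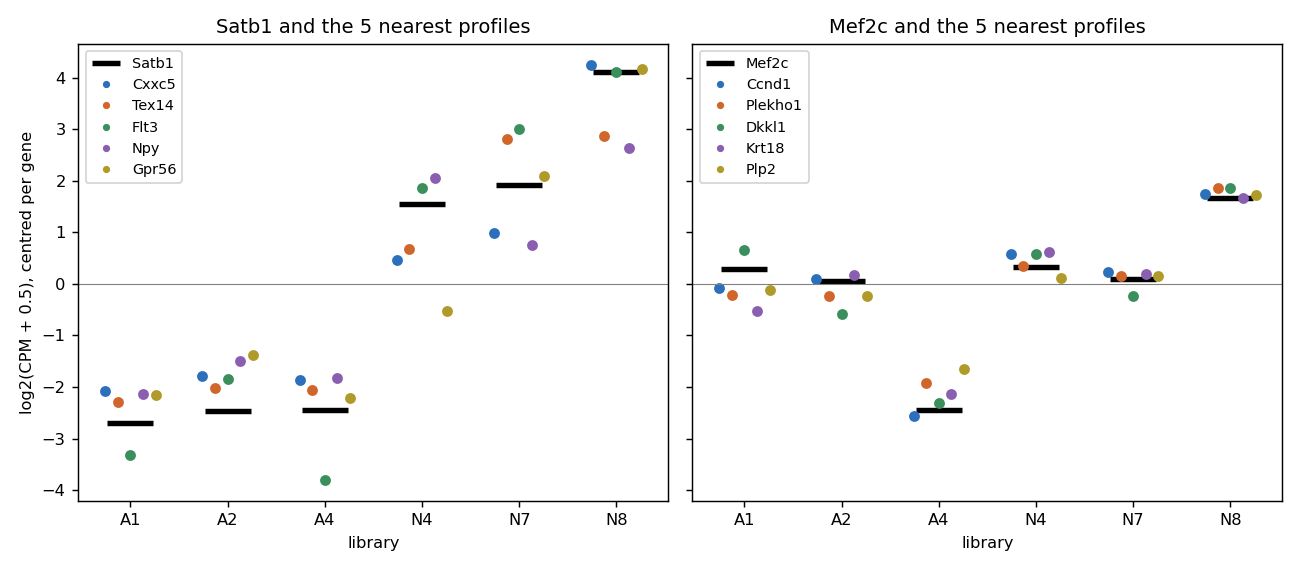
Centred log2(CPM + 0.5) in each adult (A) and neonatal (N) library for Satb1 (left) and Mef2c (right), as black bars, with the 5 genes of nearest profile as points. In the Satb1 set each gene is higher in every N than in any A library, while the Mef2c set is marked by the low A4 and the high N8.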

How the data were processed

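Raw read counts per gene were deposited for 6 libraries of polyA-selected RNA. Per the file headers the authors counted primary alignments by gene identifier with featureCounts 1.5.1 on a UCSC annotation of mm10, with no strand setting, and per the labels' protocols reads were single-end. Trimmomatic, TopHat, Bowtie and DESeq2 are listed in the submitters' processing notes with no version. Exon length, an other column of the deposited table, was used for RPKM. No exon base of the 10 factors is shared with another gene of the file. In GENCODE, exons of other genes overlap those of Ikzf2, Satb1, Bcl11a, Lef1 and Foxp1.

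Genes were kept by filterByExpr at a minimum count of 10 and scaled by TMM. Neonatal minus adult LICs was then tested by edgeR's robust quasi-likelihood fit (edgeR 4.0.16, R 4.3.3), with p-values adjusted by Benjamini-Hochberg over all genes tested and called below 0.05. The SE was derived as the absolute log2 fold change over the square root of F. Family shares used exact permutation tests over libraries. The 17 alternatives included DESeq2 1.42.0 and limma 3.58.1. The members, lists and tests were chosen with earlier results of these data known. Named genes were the 10 factors, up to 3 tested genes of each list with the smallest p, genes of a list called with or without neonatal replicate 4, and the 5 nearest profiles of Satb1 and Mef2c; named by this rule but not described were Chd3, Mbd2, Tle1, Ctbp2, Rnf43, Hdac4, Hdac9, Il7r, Ly6d, Nfil3 and several markers of other cell types, and 1 listed gene that the rule named is not reported here. Other genes named in the text fall outside this rule and were named after their values were seen. Upstream windows are RefSeq's (GRCm38.p6), and 7 of the 10 factors matched that table.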

Additional observations from a re-analysis of the deposited data

How the results depend on the processing

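No paired analysis was possible because the adult and neonatal groups share 1 replicate number. The count of factors called by edgeR, 0 on 6 libraries, was 4 with DESeq2, 3 with limma voom and library quality weights, 1 (Satb1) with length and GC offsets, and 0 to 3 when each library was left out in turn (3 without neonatal replicate 4, and 1, Satb1, without neonatal replicate 8); the causes were not tested. The other 12 of 17 alternatives gave 0. Ikzf1 changed sign from -0.11 to 0.069 with quality weights, 0.095 with length and GC offsets, 0.01 without adult replicate 1 and 0.17 without neonatal replicate 4, and ran from -0.48 (without neonatal replicate 8) to 0.17 over the libraries left out. Over the alternatives (edgeR, limma, DESeq2) the adjusted p lay between 5.12e-15 and 0.390 for Satb1, 0.000433 and 0.413 for Bcl11a, 0.000433 and 0.390 for Tcf7, 0.0191 and 0.572 for Tcf4 and 0.0511 and 0.773 for Foxp1. Bcl11a and Tcf7 passed the filter through the adult libraries alone and so had to differ. Their p ranges, and their part in the counts of 4, 3 and 3 called factors, are given as a description. Of the gene lists, each at 0 calls on 6 libraries, DESeq2 called 1 gene among paralogs, WNT targets, lymphoid-primed receptors, other lymphoid factors, monocyte, megakaryocyte and stem cell markers and 5 among neutrophil markers. Quality weights called 4 among neutrophil markers, 2 each among paralogs, NuRD, other lymphoid factors and stem cell markers, and 1 each among TCF/LEF cofactors, WNT targets, lymphoid-primed receptors and monocyte markers; limma voom without them called 1 lymphoid-primed gene. Leaving out single libraries gave 0 to 3 calls for paralogs and 0 to 1 for NuRD, class IIa deacetylases, lymphoid-primed receptors and neutrophil, monocyte and stem cell markers, the highest without neonatal replicate 4. The 5 family shares kept their direction in the 8 alternatives run. For Tcf7 this direction was fixed, as its share was 0 in every neonatal library. The depth of neonatal replicate 4 limits Bcl11a, Tcf7 and Ikzf3 there.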
